A study of Homo sapiens with 4 samples.

Results

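The AKT kinases and the phosphoinositide 3-kinase (PI3K) genes that switch them on were examined in HCCLM3, a human hepatoma cell line. The set was taken by gene name and comprised 8 of the 13036 genes listed: the kinases AKT1 and AKT2, the AKT-activating kinase PDPK1, the catalytic subunits PIK3CA and PIK3CB, the regulatory subunits PIK3R1 and PIK3R2, and the adaptor IRS1. These genes held 39 of the 38510 listed transcripts. The rule took rows by gene name, but the 8 genes were chosen with earlier results of these data known. Both groups carried a lentiviral short hairpin RNA: 2 shCtrl libraries came from cells with a control hairpin, and 2 shKIAA1429 libraries from cells with a hairpin against KIAA1429. KIAA1429, now called VIRMA, encodes a member of the complex that writes N6-methyladenosine on RNA. Stably infected cells of 1 line were used, and no label says that the 2 libraries of a group came from separate cultures, so the p-values below measure only the spread between these libraries, which may be technical. Each value is an FPKM, a count of fragments corrected for the length of the transcript and for the size of the library, and the depth behind it is unknown.

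PI3K is a pair of proteins. A catalytic subunit (p110 alpha from PIK3CA, p110 beta from PIK3CB) makes the membrane lipid PIP3, and a regulatory subunit (p85 alpha from PIK3R1, p85 beta from PIK3R2) docks the enzyme on activated receptors and on adaptors such as IRS1, the main docking protein of the insulin receptor. PIP3 recruits AKT and PDPK1 to the membrane, where PDPK1 phosphorylates a threonine in the activation loop of AKT and so turns the kinase on. In liver cells AKT2 is known as the AKT that carries much of the insulin signal to glucose and lipid metabolism.

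The libraries summed to between 370253 and 390224 FPKM, and every listed transcript reached at least 0.504 FPKM in a library. VIRMA stood at 9.37 and 14.1 FPKM in shCtrl against 6.90 and 8.52 FPKM in shKIAA1429, so the groups did not overlap, with a log2 fold change of -0.53 (SE 0.24, limma adjusted p = 0.917). Leaving out shCtrl replicate 2 gave -0.26, and leaving out shCtrl replicate 1 gave -0.80. In bulk libraries such as these, fewer cells with a transcript and less of it per cell cannot be told apart. Of 5 epithelial markers, the keratins KRT8, KRT18 and KRT19 were read. Their sum lay between 2440 and 2664 FPKM in the 4 libraries and was higher in both shKIAA1429 libraries. KRT19 stood at 364.2 and 350.1 FPKM in shCtrl against 461.3 and 457.9 FPKM in shKIAA1429, without overlap. The groups of KRT8 and of KRT18 overlapped. Of 11 hepatocyte markers, 1 could be read here, SERPINA1. It stood at 4.42 and 3.34 FPKM in shCtrl against 5.63 and 4.70 FPKM in shKIAA1429, also without overlap. The labelled cell type was therefore checked by the keratins only, which does not establish it as hepatoma. Of 5 leukocyte markers CD14 and CD68 were read, of 5 fibroblast and stellate cell markers COL1A1, DCN, ACTA2 and PDGFRB, and of 4 endothelial markers 0. The summed leukocyte markers lay between 46.7 and 56.3 FPKM, and the fibroblast markers between 59.2 and 63.1 FPKM, with overlapping groups. The part of these levels in the results below was not tested.

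To describe AKT2 by its transcripts, their exons were taken from the GENCODE 44 annotation lifted to GRCh37. AKT2 (ENSG00000105221.16_3) is at chr19:40736224-40791302 on the minus strand. Its longest coding transcript, AKT2-206 (ENST00000392038.6_1), has 14 exons and 481 codons, and its end at the first exon differs by 50 bases between the files and the annotation. AKT2-210 (ENST00000424901.5_2) has 13 exons and 438 codons, and it lacks the tenth exon of AKT2-206 and no other. That exon has 129 bases, lies at chr19:40742164-40742292, is coding throughout, and holds codons 278 to 320, so that leaving it out keeps the reading frame. Codon 309, at chr19:40742197-40742199, is the activation-loop threonine. AKT1 has an exon of the same length at chr14:105239588-105239716, which holds codons 277 to 319 with the threonine at codon 308. The exons are identical at 107 of the 129 bases (82.9%). Both are printed on the transcribed strand of GRCh37 with the threonine codon in capitals, because AKT2-206 and AKT2-210, described below, differ by this exon.
AKT2 exon: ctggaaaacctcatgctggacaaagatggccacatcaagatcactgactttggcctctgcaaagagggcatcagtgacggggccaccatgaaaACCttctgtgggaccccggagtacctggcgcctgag
AKT1 exon: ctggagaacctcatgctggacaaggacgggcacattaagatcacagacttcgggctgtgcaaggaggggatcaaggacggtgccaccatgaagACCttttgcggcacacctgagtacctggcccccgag

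The exon junctions that tell these AKT2 transcripts apart are short runs of 15 bases from each of the joined exons, 5′ to 3′, with the bases of the activation-loop exon in capitals. The upstream and downstream junctions of AKT2-206 span chr19:40742278-40743890 and chr19:40741997-40742178, and the skipping junction of AKT2-210 spans chr19:40741997-40743890. Reads across them were not analysed here, so the values that follow rest on the authors' assignment of fragments to whole transcripts.
AKT2-206 upstream junction: taccgcgacatcaagCTGGAAAACCTCATG
AKT2-206 downstream junction: TACCTGGCGCCTGAGgtgctggaggacaat
AKT2-210 skipping junction: taccgcgacatcaaggtgctggaggacaat

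In AKT2, the transcript with the activation-loop exon was listed near 0 in both shCtrl libraries and above 3 FPKM in both shKIAA1429 libraries, and the transcript without the exon had the opposite order. AKT2-206 stood at 0.000692 and 0.000887 FPKM in shCtrl against 3.06 and 3.55 FPKM in shKIAA1429. The groups did not overlap, and the libraries of each group were close to each other. The log2 fold change on the log2(FPKM + 1) scale was 2.10 (SE 0.19, 95% interval 1.56 to 2.65), with an unadjusted limma p of 0.000529 and an adjusted p of 0.149 over the 24996 transcripts tested. AKT2-210 stood at 2.03 and 3.03 FPKM in shCtrl against 0 and 0.180 FPKM in shKIAA1429. Its groups did not overlap either. The log2 fold change was -1.69 (SE 0.25, 95% interval -2.40 to -0.98), with an unadjusted limma p of 0.00309 and an adjusted p of 0.277. Neither transcript therefore passed the threshold of an adjusted p under 0.05 with an absolute log2 fold change over 1.

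**Figure D1:**
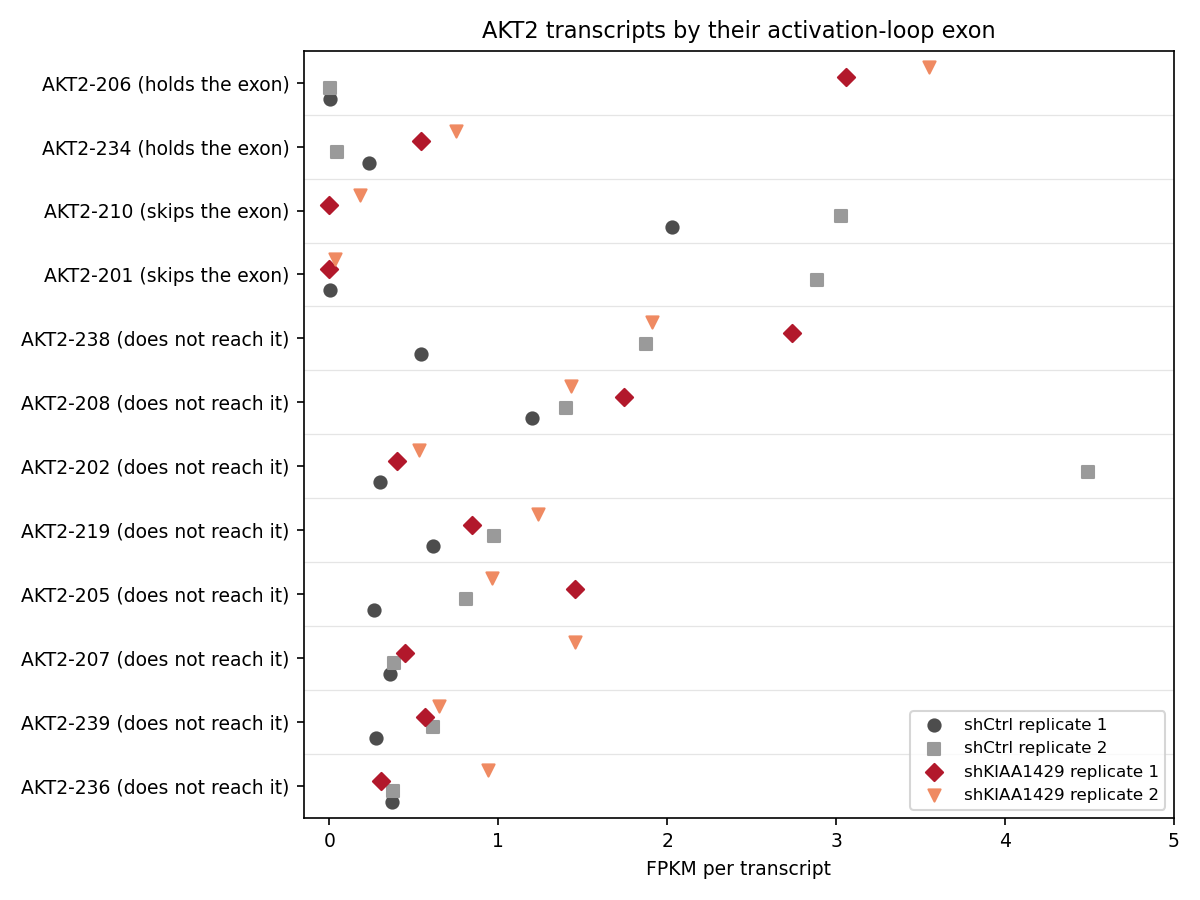
FPKM of each of the 12 listed AKT2 transcripts (x axis) in the 4 libraries, 1 point per library, with the transcripts grouped by whether they hold, skip or do not reach the activation-loop exon. AKT2-206 is near 0 in both shCtrl libraries and at 3.06 and 3.55 FPKM in shKIAA1429, while AKT2-210 is at 2.03 and 3.03 FPKM in shCtrl against 0 and 0.180 FPKM in shKIAA1429.

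The sum of AKT2-206 and AKT2-210 was 2.03 and 3.03 FPKM in shCtrl and 3.06 and 3.73 FPKM in shKIAA1429. The pair thus differed less in sum than in which of them held the signal. A second transcript with the exon, AKT2-234 (ENST00000579047.5_1, 450 codons), stood at 0.232 and 0.0450 FPKM in shCtrl against 0.544 and 0.751 FPKM in shKIAA1429. It was higher in both shKIAA1429 libraries, though it stayed under 1 FPKM in every library and was not tested. A second transcript without the exon, AKT2-201 (ENST00000311278.10_2, 438 codons), stood at 0.00268 and 2.89 FPKM in shCtrl against 0 and 0.0348 FPKM in shKIAA1429. Only shCtrl replicate 2 held it, so the groups overlapped.

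Taken over these 4 transcripts, those with the exon summed to 0.232 and 0.0459 FPKM in shCtrl and to 3.60 and 4.30 FPKM in shKIAA1429. Those that skip it summed to 2.03 and 5.92 FPKM in shCtrl and to 0 and 0.214 FPKM in shKIAA1429. Of the FPKM of transcripts that reach the exon, 10.2% and 0.769% held it in the shCtrl libraries, against 100% and 95.3% in the shKIAA1429 libraries. The shares of the groups did not overlap. They restate the values of the same 4 transcripts given above and are not a separate result. Shares this close to 0 and 100% hide differences in level, as the FPKM that skips the exon differed between the shCtrl libraries. An exact two-sided permutation test of such a share gives p = 0.33 at the least with 2 libraries against 2, so no share could pass 0.05.

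**Figure D2:**
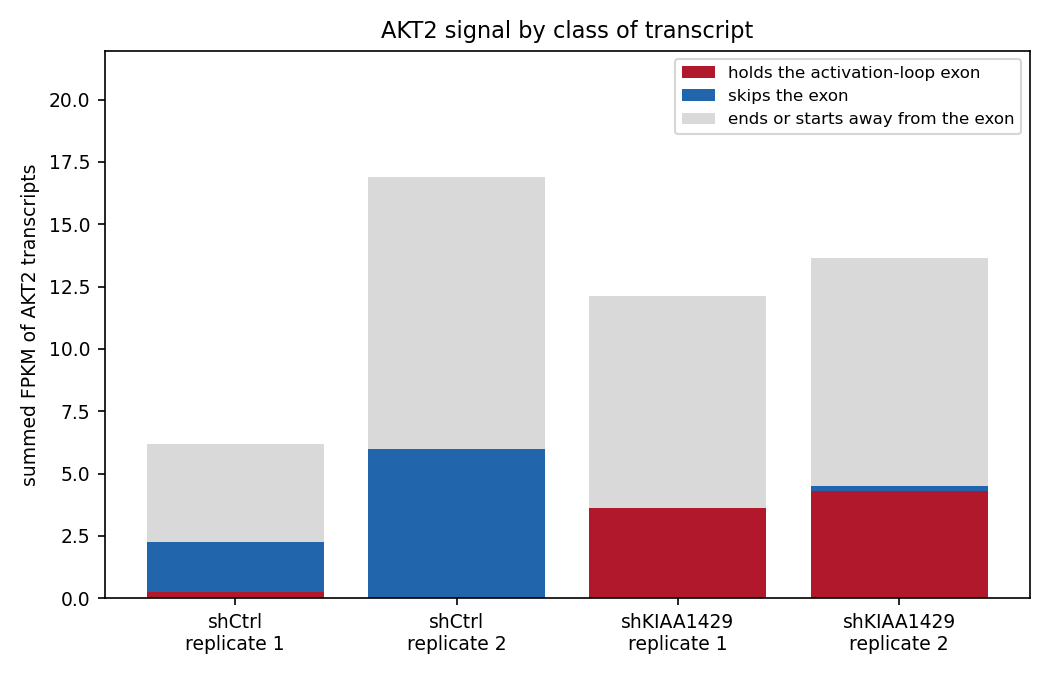
Summed FPKM of AKT2 transcripts (y axis) in each library, stacked by class: transcripts that hold the activation-loop exon, transcripts that skip it, and transcripts that do not reach it. The part that holds the exon is 0.232 and 0.0459 FPKM in shCtrl and 3.60 and 4.30 FPKM in shKIAA1429, and most of the signal in every library comes from transcripts that do not reach the exon.

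The other 8 AKT2 transcripts are short models of the first exons of the gene and end before the activation-loop exon. Together they made up 3.92 and 10.9 FPKM in shCtrl and 8.50 and 9.12 FPKM in shKIAA1429, more than the 4 transcripts that reach the exon in each library. The most abundant by mean were the noncoding AKT2-238 and the coding AKT2-208 and AKT2-202. AKT2-238 stood at 0.544 and 1.87 FPKM in shCtrl against 2.74 and 1.91 FPKM in shKIAA1429, with a log2 fold change of 0.65 (SE 0.40, adjusted p = 0.973). AKT2-208 stood at 1.20 and 1.40 FPKM against 1.75 and 1.43 FPKM, with a log2 fold change of 0.17 (SE 0.20, adjusted p = 0.991). Both were higher in both shKIAA1429 libraries, and neither passed the test. The value of AKT2-238 was 0.20 without shCtrl replicate 1. AKT2-202 stood at 4.49 FPKM in shCtrl replicate 2 and between 0.298 and 0.531 FPKM in the other libraries, so 1 library set its mean. The remaining 5 (AKT2-205, AKT2-207, AKT2-219, AKT2-236 and AKT2-239) lay between 0.262 and 1.45 FPKM.

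Summed over its 12 transcripts, AKT2 stood at 6.19 and 16.9 FPKM in shCtrl against 12.1 and 13.6 FPKM in shKIAA1429. The shKIAA1429 libraries both lay between the shCtrl libraries, which differed 2.73-fold. The gene's log2 fold change was 0.29 (SE 0.45, 95% interval -0.87 to 1.44, adjusted p = 0.987), and it was -0.37 without shCtrl replicate 1. The opposite order of AKT2-206 and AKT2-210, neither of which passed the test, was therefore not visible in the gene sum. With each library left out in turn, the log2 fold change of AKT2-206 lay between 2.02 and 2.18 (adjusted p 0.358 to 0.633) and that of AKT2-210 between -1.89 and -1.48 (adjusted p 0.429 to 0.714). Both passed the filter on low values only through the group in which they were high, and with the other group near 0 the size of the fold depends on the pseudocount: it was 5.07 and -3.95 with 0.1 in place of 1. The 3 genes of at least 5 mean FPKM whose centred log2(FPKM + 1) over the 4 libraries lay nearest to that of the AKT2 sum, of 7475 compared, were TWF1 (root mean square difference 0.0198), DHDDS (0.0982) and FAM110A (0.0996). Each was lowest in shCtrl replicate 1 and highest in shCtrl replicate 2, like AKT2, which reflects how they were picked.

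AKT1, the AKT present in most tissues, was the most abundant of the 8 genes. AKT1 (ENSG00000142208.15_3, chromosome 14, 105235686 to 105262088, minus strand) summed to 40.2 and 48.2 FPKM in shCtrl and to 38.0 and 52.6 FPKM in shKIAA1429. The groups overlapped fully, with a log2 fold change of 0.02 (SE 0.21, 95% interval -0.51 to 0.56, adjusted p = 0.999). All 7 of the AKT1 transcripts whose ends in the files span the homologous exon hold it in the annotation. The 3 other listed AKT1 transcripts were not read for it. AKT1-203, which encodes the whole 480-codon protein, stood at 12.0 and 8.17 FPKM in shCtrl against 10.5 and 10.8 FPKM in shKIAA1429. AKT1-214, with the same coding sequence, stood at 8.54 and 10.6 FPKM against 10.5 and 10.9 FPKM. Together with AKT1-215 (9.92 and 8.73 FPKM in shCtrl, 4.27 and 11.0 FPKM in shKIAA1429) they held most of the AKT1 signal. In these 3 transcripts the groups overlapped.

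Of the further AKT1 transcripts, AKT1-211 stood at 3.23 and 7.11 FPKM in shCtrl against 5.04 and 7.22 FPKM in shKIAA1429. The noncoding AKT1-204 stood at 1.60 and 4.43 FPKM against 3.15 and 5.79 FPKM. In both, the library numbered 2 was the higher of each group. AKT1-202 stood at 2.40 FPKM in shCtrl replicate 2 and between 0.0472 and 0.0788 FPKM in the other 3 libraries. AKT1-201, AKT1-208, AKT1-213 and AKT1-217 lay between 0.411 and 3.11 FPKM with overlapping groups. AKT1-215 and AKT1-217 were not matched to the annotation, and AKT1-213 has an end inside the homologous exon in the files, so these 3 were not read for that exon.

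PDPK1, the kinase that phosphorylates the activation-loop threonine, differed in its transcripts between libraries of the same group. PDPK1 (ENSG00000140992.18_3, chromosome 16, 2587965 to 2653189, plus strand) summed to 9.79 and 4.72 FPKM in shCtrl and to 4.29 and 9.41 FPKM in shKIAA1429. One library of each group was at about the level of 1 library of the other, so the groups overlapped, and the log2 fold change was -0.08 (SE 0.45, 95% interval -1.25 to 1.09, adjusted p = 0.999). PDPK1-201 (ENST00000268673.11_1), whose 429 codons lack exons 4, 5 and 6 of PDPK1-202, stood at 6.35 and 0.0811 FPKM in shCtrl against 0 and 5.47 FPKM in shKIAA1429. The 3 exons have 381 bases, lie at chr16:2611772-2611909, chr16:2615554-2615698 and chr16:2616357-2616454, and keep the frame when left out. PDPK1-202 (ENST00000342085.8_1), with 556 codons, stood at 2.78 and 3.69 FPKM in shCtrl against 1.39 and 2.84 FPKM in shKIAA1429. It was the steadier of the pair, with a log2 fold change of -0.47 (SE 0.33, adjusted p = 0.973). The junctions that separate them, with the bases of the fourth exon in capitals, span chr16:2611509-2611786 and chr16:2611509-2627440.
PDPK1-202 upstream junction: ccagagaatatgcgaTTAAAATTCTGGAGA
PDPK1-201 skipping junction: ccagagaatatgcgaccagggccaactcat

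PDPK1-203, with 529 codons, stood at 0.227 and 0.269 FPKM in shCtrl against 2.28 and 0.321 FPKM in shKIAA1429, so it was high only in the library in which PDPK1-201 was listed at 0. The noncoding PDPK1-208 lay between 0.433 and 0.773 FPKM. A near-identical pseudogene of PDPK1 lies on the same chromosome, and how fragments shared between them were counted is not given in the sources used here, so the PDPK1 values are uncertain.

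The catalytic subunits both had higher gene sums in both shKIAA1429 libraries, and neither passed the test. PIK3CB (ENSG00000051382.8_2, chromosome 3, 138371541 to 138553780, minus strand) stood at 9.39 and 12.7 FPKM in shCtrl against 13.5 and 14.8 FPKM in shKIAA1429. Its groups did not overlap, with a log2 fold change of 0.35 (SE 0.19, 95% interval -0.14 to 0.84, adjusted p = 0.943) that was 0.15 without shCtrl replicate 1. Its transcript with the largest difference was PIK3CB-208 (ENST00000477593.5_1, 23 exons, 1070 codons), which stood at 0.288 and 0.678 FPKM in shCtrl against 4.12 and 5.09 FPKM in shKIAA1429. Both shKIAA1429 libraries were well above both shCtrl libraries. The log2 fold change was 1.92 (SE 0.25, 95% interval 1.22 to 2.63), with an unadjusted limma p of 0.00189 and an adjusted p of 0.240. It passed the filter on low values only through shKIAA1429, and with a pseudocount of 0.1 the log2 fold change was 3.09.

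PIK3CB-201 has the same 1070 codons and lacks the first exon of PIK3CB-208, of 58 bases. It also runs further at its 3′ end, to chr3:138371541 against chr3:138372860, and has 5919 exonic bases against 4658. It stood at 0.611 and 0.867 FPKM in shCtrl against 0.0578 and 0.249 FPKM in shKIAA1429, so it was the lower of the groups where PIK3CB-208 was the higher. The sum of both, the FPKM of transcripts with the whole coding sequence, was 0.899 and 1.54 FPKM in shCtrl and 4.17 and 5.34 FPKM in shKIAA1429. The groups of this sum did not overlap. The most abundant model was PIK3CB-213, a shorter transcript of 701 codons that also lacks the eleventh exon of PIK3CB-208 (51 bases, chr3:138423285-138423335). It stood at 4.44 and 5.98 FPKM in shCtrl against 5.33 and 5.28 FPKM in shKIAA1429, with a log2 fold change of 0.03 (SE 0.21). PIK3CB-202, not matched to the annotation, lay between 3.68 and 4.02 FPKM with a log2 fold change of 0.00185 (SE 0.18), and PIK3CB-210 lay between 0.222 and 1.12 FPKM. PIK3CB-213 and PIK3CB-202 thus overlapped between the groups while PIK3CB-208 did not.

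PIK3CA (ENSG00000121879.3_3, chromosome 3, 178865902 to 178957881, plus strand) stood at 2.13 and 3.48 FPKM in shCtrl against 3.53 and 3.65 FPKM in shKIAA1429. Its log2 fold change was 0.29 (SE 0.22, 95% interval -0.28 to 0.87, adjusted p = 0.969), and 0.035 without shCtrl replicate 1. PIK3CA-201, the transcript with the whole coding sequence of 1068 codons, stood at 2.13 and 1.40 FPKM in shCtrl against 1.71 and 1.67 FPKM in shKIAA1429, with overlapping groups and a log2 fold change of -0.03 (SE 0.23). The difference of the gene sum came from PIK3CA-204, a fragment of 2 exons and 245 bases, which was listed at 0 in shCtrl replicate 1 and at 1.82 to 2.08 FPKM in the other 3 libraries.

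**Figure D3:**
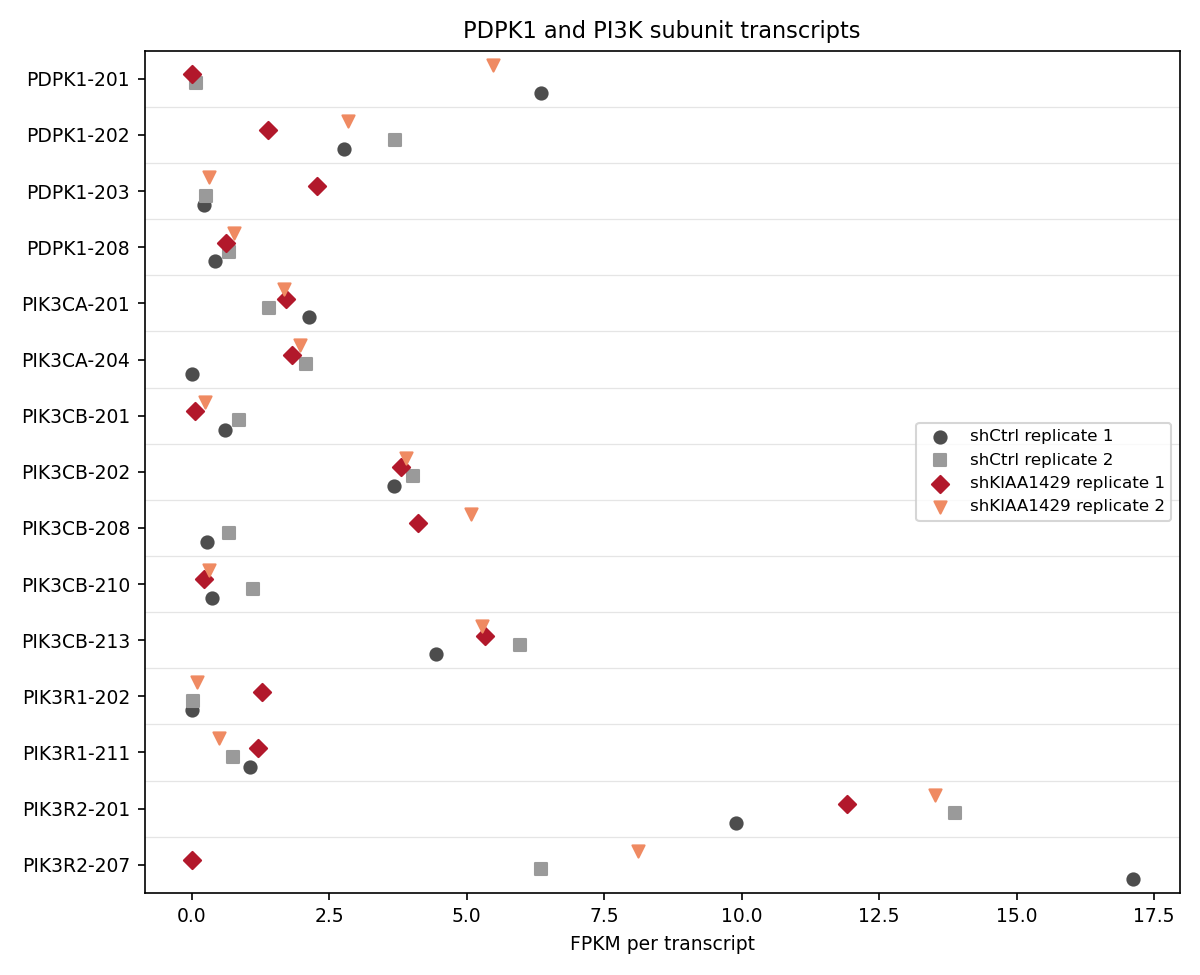
FPKM of the listed transcripts of PDPK1, PIK3CA, PIK3CB, PIK3R1 and PIK3R2 (x axis) in the 4 libraries, 1 point per library. PIK3CB-208 separates the groups, at 0.288 and 0.678 FPKM in shCtrl and 4.12 and 5.09 FPKM in shKIAA1429, whereas PDPK1-201 and PIK3R2-207 separate libraries of the same group.

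Among the regulatory subunits, PIK3R2 (p85 beta) was far more abundant than PIK3R1 (p85 alpha). PIK3R2 (ENSG00000105647.16_3, chromosome 19, 18263928 to 18281350, plus strand) stood at 27.0 and 20.2 FPKM in shCtrl against 11.9 and 21.6 FPKM in shKIAA1429, with a log2 fold change of -0.51 (SE 0.32, 95% interval -1.33 to 0.31, adjusted p = 0.954) that was -0.11 without shKIAA1429 replicate 1. The groups overlapped, and shKIAA1429 replicate 1 was the lowest library. The transcript that encodes the full 728 codons, PIK3R2-201, stood at 9.89 and 13.9 FPKM in shCtrl against 11.9 and 13.5 FPKM in shKIAA1429, with a log2 fold change of 0.10 (SE 0.23). PIK3R2-207 stood at 17.1 and 6.35 FPKM in shCtrl against 0.00779 and 8.11 FPKM in shKIAA1429, so the low gene sum of shKIAA1429 replicate 1 was that of this transcript. PIK3R2-201, PIK3R1-211 and PDPK1-202 also have other outer ends in the annotation than in the files. In the annotation PIK3R2-207 lacks the sixth exon of PIK3R2-201 (217 bases, chr19:18272089-18272305), which does not keep the frame, and is classed as a target of nonsense-mediated decay, while the files class it as coding and give it other ends. A readthrough gene on the same strand, ENSG00000268173, covers PIK3R2 (chr19:18263968-18288927), so reads of the pair cannot be told apart.

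PIK3R1 (ENSG00000145675.14_2, chromosome 5, 67511548 to 67597649, plus strand) had the lowest mean of the 8 genes, at 1.07 and 0.768 FPKM in shCtrl against 2.48 and 0.591 FPKM in shKIAA1429. The shKIAA1429 libraries were the highest and the lowest, and the log2 fold change was 0.30 (SE 0.40, 95% interval -0.74 to 1.33, adjusted p = 0.987). PIK3R1-211, which encodes the long form of 724 codons, stood at 1.06 and 0.747 FPKM in shCtrl against 1.21 and 0.496 FPKM in shKIAA1429. In the annotation PIK3R1-202 encodes a shorter form of 454 codons from an inner start, and its ends differ by 124 and 2897 bases from those in the files. PIK3R1-202 stood at 0.0101 and 0.0210 FPKM in shCtrl against 1.27 and 0.0947 FPKM in shKIAA1429. It was above 1 FPKM in shKIAA1429 replicate 1 only and was not tested.

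IRS1, which brings PI3K to the insulin receptor, was the steadiest of the 8 genes. IRS1 (ENSG00000169047.5_2, chromosome 2, 227596033 to 227664475, minus strand) stood at 27.9 and 28.0 FPKM in shCtrl against 27.9 and 26.2 FPKM in shKIAA1429. The highest library was 1.07 times the lowest, and the log2 fold change was -0.04 (SE 0.13, 95% interval -0.38 to 0.29, adjusted p = 0.999). IRS1-201, which holds the coding sequence of 1242 codons, stood at 23.4 and 22.5 FPKM in shCtrl against 23.3 and 22.0 FPKM in shKIAA1429. The noncoding IRS1-202 stood at 4.45 and 5.44 FPKM against 4.59 and 4.21 FPKM. Both transcripts kept nearly the same share of the gene in every library, between 80.6% and 84.0% for IRS1-201.

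Ordered by their mean FPKM, which is per length, the genes were AKT1 (44.7), IRS1 (27.5), PIK3R2 (20.2), PIK3CB (12.6), AKT2 (12.2), PDPK1 (7.05), PIK3CA (3.20) and PIK3R1 (1.23). The ranges over the 4 libraries did not overlap between AKT1 and IRS1 or between PDPK1 and PIK3CA. All other neighbours in this order overlapped. All 8 genes passed the filter of at least 1 FPKM in at least 2 libraries, and 0 of 8 passed both thresholds by limma, as 0 (0%) of the 11657 genes tested did. At an unadjusted p under 0.05 the count was again 0 of the 8 genes, where 5.63% of all genes stood. PIK3CA and PIK3CB were higher in both shKIAA1429 libraries without overlap, as 16.9% of all genes were, and IRS1 was lower without overlap, by a gap of under 0.1 FPKM, as 16.7% of all genes were.

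**Figure D4:**
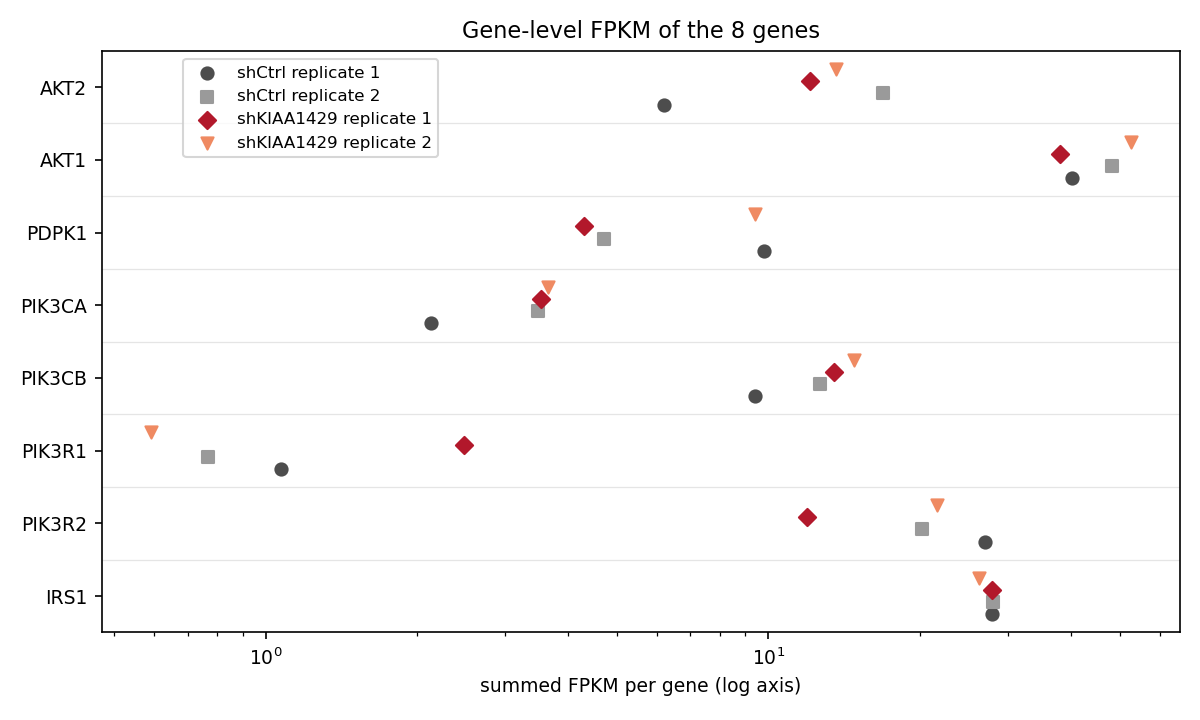
Summed FPKM per gene (x axis, log scale) of the 8 genes in the 4 libraries, 1 point per library. The IRS1 libraries nearly coincide, from 26.2 to 28.0 FPKM, while AKT2 spans 6.19 to 16.9 FPKM and PDPK1 4.29 to 9.79 FPKM, with both extremes of AKT2 in shCtrl.

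Of the 39 transcripts, 24 passed the same filter and were tested singly, and 15 did not, with maxima from 0.651 to 4.49 FPKM. By limma 0 of the 24 passed both thresholds, as 0 (0%) of the 24996 transcripts tested did. An unadjusted limma p under 0.05 was given to AKT2-206, AKT2-210 and PIK3CB-208, where 6.28% of all tested transcripts had one. All 3 also had an absolute log2 fold change over 1, and 3.3% of all tested transcripts met both conditions. Each of the 3 passed the filter only through the group in which it was high, so their number was partly set by the filter. AKT2-206 was also under 0.1 FPKM in both shCtrl libraries and at least at 1 FPKM in both shKIAA1429 libraries, a pattern that 56 transcripts (0.224%) had, while 125 (0.5%) had the reverse pattern. Without overlap between the groups, 4 of the 24 were higher in shKIAA1429, where 16.7% of all tested transcripts were, and 1 was lower, where 16.8% were.

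**Figure D5:**
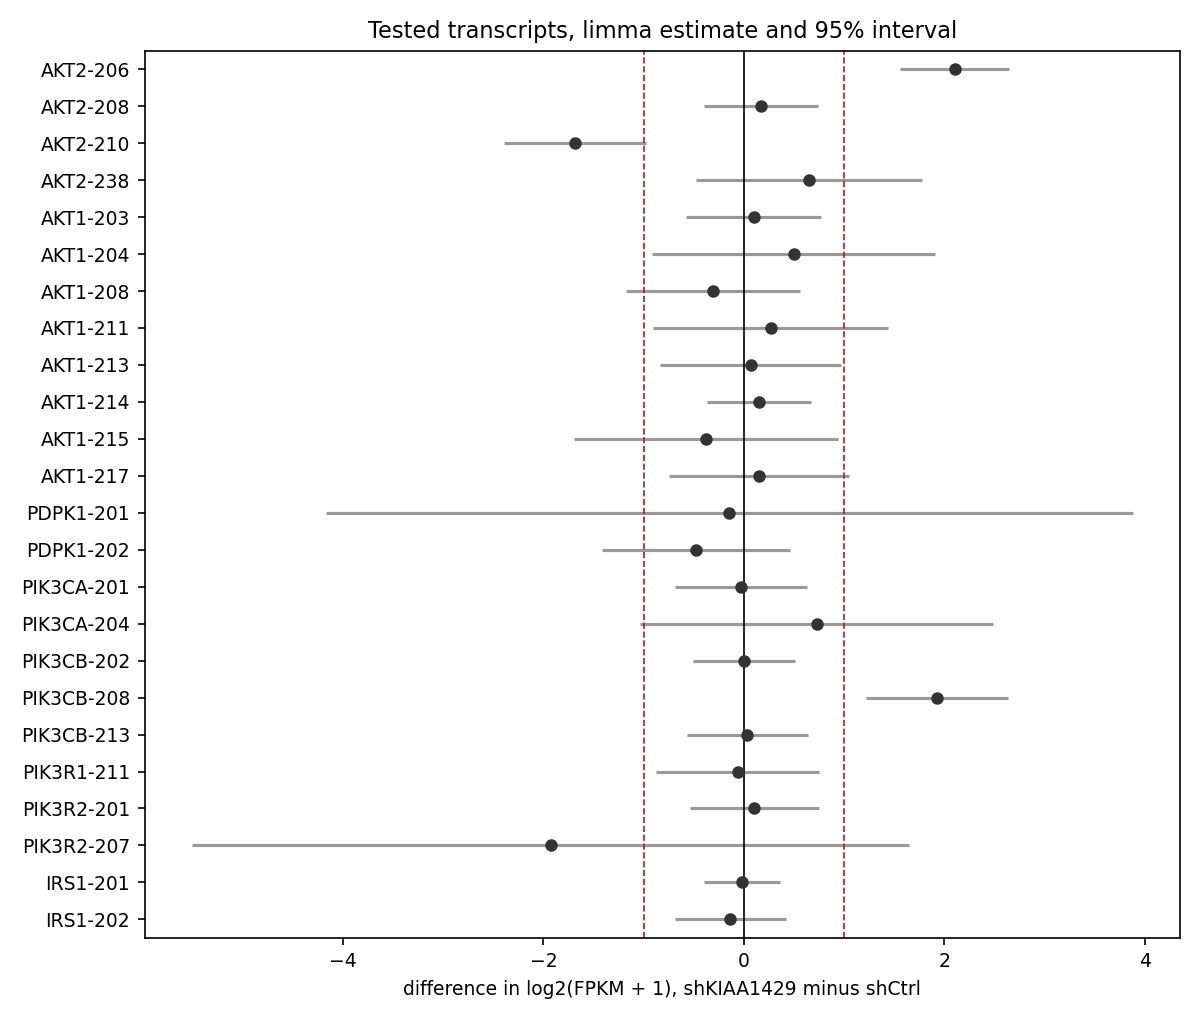
Difference in log2(FPKM + 1) between shKIAA1429 and shCtrl (x axis) for the 24 tested transcripts, with the limma estimate as a point and its 95% interval as a bar. Dashed lines mark the fold-change threshold of 1 in either direction. AKT2-206, AKT2-210 and PIK3CB-208 lie beyond it with intervals that do not reach 0. Each passed the filter on low values only through the group in which it was high, and none had an adjusted p under 0.05. PIK3R2-207 and PDPK1-201 have the widest intervals.

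To set these values against the replicate error, transcripts that were under 0.1 FPKM in 1 library of a group and at least at 1 FPKM in the other were counted. There were 646 (2.58%) among the tested transcripts in shCtrl and 970 (3.88%) in shKIAA1429. Of the 24 tested transcripts of the 8 genes there were 2 (8.33%) in shCtrl and 2 (8.33%) in shKIAA1429. Among the 39 listed transcripts of the 8 genes there were 4 in shCtrl (AKT2-201, AKT1-202, PDPK1-201 and PIK3CA-204) and 3 in shKIAA1429 (PDPK1-201, PIK3R1-202 and PIK3R2-207). A gap of that size between both libraries of 1 group and both of the other was seen in 1 of the 39, AKT2-206, and in the 56 and 125 tested transcripts counted above.

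The rest of the pathway was described from a list of 57 further genes, of which 45 were listed and 43 tested. Of the 43, 21 were higher and 22 lower in shKIAA1429, with a median log2 fold change of -0.04 beside -0.00828 over all genes tested, and 0 passed both thresholds by limma. At an unadjusted p under 0.05 there were 4 of the 43, beside the 5.63% of all genes. Without overlap between the groups 5 were higher and 14 lower, beside 16.9% and 16.7% of all genes.

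The 4 genes were 2 AKT substrates and 2 targets of the FOXO transcription factors, which AKT keeps out of the nucleus. AKT1S1, which encodes the mTORC1 inhibitor PRAS40, stood at 37.2 and 37.7 FPKM in shCtrl against 51.2 and 55.9 FPKM in shKIAA1429, with a log2 fold change of 0.50 (SE 0.13, limma adjusted p = 0.676). The groups did not overlap, while its most abundant transcript alone gave -1.08. TSC2, a brake on mTORC1 that AKT phosphorylates, stood at 13.2 and 13.2 FPKM in shCtrl against 18.2 and 16.4 FPKM in shKIAA1429, with a log2 fold change of 0.37 (SE 0.14). IGFBP1, a secreted binder of insulin-like growth factors that insulin represses in liver, stood at 20.6 and 28.9 FPKM in shCtrl against 11.7 and 10.3 FPKM in shKIAA1429. Its log2 fold change was -1.09 (SE 0.21, 95% interval -1.63 to -0.56, limma adjusted p = 0.484), and it was the only gene of the list beyond an absolute log2 fold change of 1. CCNG2, an atypical cyclin, stood at 3.997 and 2.74 FPKM in shCtrl against 5.68 and 6.36 FPKM in shKIAA1429, with a log2 fold change of 0.70 (SE 0.20), and its most abundant transcript alone gave -0.14. The FOXO targets thus did not share a direction, with 4 of the 6 tested higher and 2 lower.

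The most abundant gene of each role was 1 of the 8 genes for the catalytic subunits, the regulatory subunits and AKT with its kinase, and another gene for the other roles. Among the receptors and adaptors SHC1 stood at 128.0 and 116.0 FPKM in shCtrl against 140.0 and 121.8 FPKM in shKIAA1429. IRS2, the other main insulin receptor substrate, stood at 22.9 and 24.2 FPKM against 19.2 and 20.3 FPKM. IRS2, GAB1 and GAB2 were each lower in both shKIAA1429 libraries, where 16.7% of all genes were lower without overlap, with log2 fold changes of -0.24 (SE 0.13), -0.34 (SE 0.18) and -0.35 (SE 0.22). Of the 8 receptors and adaptors tested, 3 were higher and 5 lower, and 0 passed. Among the other PI3K classes PIK3C2A stood at 7.61 and 7.74 FPKM against 5.45 and 6.33 FPKM, with a log2 fold change of -0.33 (SE 0.15).

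Of the kinases related to AKT, SGK1 stood at 45.5 and 32.6 FPKM in shCtrl against 31.6 and 24.5 FPKM in shKIAA1429, with a log2 fold change of -0.45 (SE 0.22). TRIB3, a pseudokinase that binds AKT, was the most abundant of the inhibitors and stood at 100.9 and 35.2 FPKM in shCtrl against 84.1 and 44.3 FPKM in shKIAA1429, so the libraries numbered 1 were the higher of each group. Among the substrates the apoptosis regulator BAD stood at 88.7 and 86.5 FPKM against 66.8 and 75.8 FPKM, with a log2 fold change of -0.30 (SE 0.13). The most abundant FOXO target, CITED2, stood at 79.5 and 81.4 FPKM against 74.2 and 72.3 FPKM, with a log2 fold change of -0.13 (SE 0.11). None of these genes passed the test.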

How the data were processed

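RNA of 4 libraries of HCCLM3 cells was analysed, 2 per group, grouped by their titles. The authors deposited FPKM values per annotated transcript, with positions in GRCh37 (hg19) and GENCODE identifiers. Their methods describe TopHat alignment, HTSeq gene counts and DESeq, and the submitters' processing notes name Bowtie2 2.1.0, while the tool that made the FPKM is not given in the sources used here. FPKM of a gene's transcripts depend on how shared fragments were divided among them, and a sum over transcripts does not correct for that. Depth is unknown, so no counting interval is given.

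The 8 genes and the pathway and marker lists were chosen with earlier results of these data known. FPKM were summed per gene identifier. Genes (11657) and transcripts (24996) with at least 1 FPKM in at least 2 libraries were compared on log2(FPKM + 1), which understates changes of low values, with limma 3.58.1 in R 4.3.3 (eBayes with trend, two-sided, group only, 2.87 and 1.78 prior degrees of freedom). Adjustment (Benjamini-Hochberg) was over all features tested. A feature was called at an adjusted p under 0.05 with an absolute log2 fold change over 1. On simulated data for the 11657 genes, the fit recovered 99 of 100 genes changed by 2 and 98 of 100 changed by 3 on the log2 scale, with 11 false calls. For the 24996 transcripts it recovered 55 of 100 and 85 of 100, with 7 false calls. The changed features were drawn only from those with a mean log2(FPKM + 1) over 3. The genes PDPK1, PIK3CA and PIK3R1 lie below that mean, as do all AKT2 transcripts, PIK3CB-208 and most tested transcripts of the 8 genes. These recoveries do not describe them.

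All 8 genes and their transcripts were named, those pathway genes with an unadjusted p under 0.05 or an absolute log2 fold change over 1, the most abundant gene of each role, and the 3 genes nearest to AKT2. IRS2, GAB1 and GAB2 were added after their values were seen. Exons came from the GENCODE 44 annotation lifted to GRCh37, which held 36 of the 39 transcripts, 26 with the same ends as in the files, and sequences came from the GRCh37 genome. Alternatives were upper quartile scaling, no or a stricter filter, each library left out, a pseudocount of 0.1, a block for the replicate number, either threshold alone and, for genes, coding transcripts or the most abundant transcript only. Plots used matplotlib 3.10.9 (Python 3.11.15).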

Additional observations from a re-analysis of the deposited data

How the results depend on the processing

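Of the 11657 genes tested 0 passed both thresholds, and under every other fit run the count stayed at 0, except for 1 gene without shCtrl replicate 1 (range 0 to 1 over the 4 fits that each left out a library). The count was 656 by an unadjusted p under 0.05 alone and 125 by an absolute log2 fold change over 1 alone. For transcripts it was 0 in every fit, 1570 by an unadjusted p alone and 1807 by fold change alone. For the pathway list it was 0 in every fit, 4 by an unadjusted p alone and 1 by fold change alone.

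In the fit with a replicate block, 0 genes, 0 transcripts and 0 pathway genes passed. Same-numbered libraries share only a number, and their deviations from the group means correlated at 0.324 across genes and 0.0642 across transcripts over 2 pairs. The adjusted p of AKT2-206, AKT2-210 and PIK3CB-208 was 0.5495 each with the replicate block. With a pseudocount of 0.1 their log2 fold changes were 5.07, -3.95 and 3.09. The adjusted p of AKT2-206 lay between 0.146 and 0.633 over all alternatives, that of AKT2-210 between 0.274 and 0.714, and that of PIK3CB-208 between 0.238 and 0.663.

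With coding transcripts only, the log2 fold change of AKT1 was -0.034. With the most abundant transcript only, it was -0.028 for PIK3CA, -0.064 for PIK3R1, 0.10 for PIK3R2, -1.08 for AKT1S1 and -0.14 for CCNG2, since the sum over the other transcripts was left out. When each library was left out in turn, the sign changed for 19 of 37 single genes and transcripts. The log2 fold changes ranged from -0.37 to 0.95 for AKT2, from -0.21 to 0.25 for AKT1, from -0.57 to 0.41 for PDPK1 and from -0.27 to 0.86 for PIK3R1. They ranged from -0.15 to 0.35 for AKT1-203, from -0.034 to 1.03 for AKT1-204, from -0.65 to 0.021 for AKT1-208, from -0.20 to 0.74 for AKT1-211, from -0.29 to 0.42 for AKT1-213, from -0.97 to 0.22 for AKT1-215 and from -0.20 to 0.50 for AKT1-217. They ranged from -1.53 to 1.23 for PDPK1-201, from -0.22 to 0.16 for PIK3CA-201, from -0.086 to 1.54 for PIK3CA-204, from -0.049 to 0.053 for PIK3CB-202, from -0.15 to 0.21 for PIK3CB-213, from -0.34 to 0.22 for PIK3R1-211, from -0.12 to 0.33 for PIK3R2-201 and from -0.059 to 0.019 for IRS1-201. In these fits 1 group rests on a lone library, which is assumed to vary like the other group.

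With 2 libraries per group, FPKM without depth and no junction reads, the AKT2 and PIK3CB transcript values rest on the authors' division of fragments among transcripts. The cause of the values that moved was not tested.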
